A study of Saccharomyces cerevisiae with 24 samples.

Results

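Trehalose and glycogen are the storage carbohydrates of budding yeast, and 10 genes that make them or break glycogen down were followed here in strains that differ at DOT4. The genes were chosen by name, with earlier results of these data known. TPS1 (YBR126C), TPS2 (YDR074W), TPS3 (YMR261C) and TSL1 (YML100W) encode the trehalose synthase complex, and PGM2 (YMR105C) encodes a phosphoglucomutase. GSY1 (YFR015C) and GSY2 (YLR258W) encode glycogen synthases, GLC3 (YEL011W) the branching enzyme, GPH1 (YPR160W) glycogen phosphorylase and GDB1 (YPR184W) the debranching enzyme. They are 10 of the 6205 open reading frames in the deposited table, and all 10 were among the 6195 that could be tested. Systematic names were matched to symbols through the reference annotation.

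The series holds 24 arrays, each with total RNA of 2 strains in 2 dyes, from cells grown in YEPD, which is rich and contains glucose. The strain dot4-1 (UCC6406) carries dot4-1-6Myc, UCC6435 is a dot4 null strain, dot4-5 (UCC6407) carries dot4-5-6Myc, and UCC6432 carries DOT4 without a tag. The second strain on every array was UCC6408, a DOT4-6Myc strain, so that dot4-1 and dot4-5 share the 6Myc tag with it and untagged DOT4 does not. Each strain has 3 numbered sets of 2 arrays with exchanged dyes. DOT4 is the gene UBP10 (YNL186W), which encodes a ubiquitin protease that acts on histone H2B. The sources used here give neither the protein changes of both alleles nor other strain markers, nor whether a strain was 1 clone.

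In yeast, glucose 6-phosphate is the branch point for both stores. It is converted by phosphoglucomutase to glucose 1-phosphate and then to UDP-glucose, which feeds glycogen synthase and, together with glucose 6-phosphate, the trehalose synthase complex. Both stores are low in cells that grow fast on glucose and build up as glucose runs out or under stress, and many of the genes respond to the stress factors Msn2 and Msn4 and to protein kinase A.

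The values below are log2 ratios of a strain over DOT4-6Myc, each the mean of the 2 arrays of a set after every array was centred on its median. A ratio is thus relative to the median gene of its array and says nothing of the total amount of RNA. In a bulk culture, fewer cells with a transcript and less of it per cell cannot be told apart. The direction is likely, not stated: a reading of the labels as Cy5 over Cy3 put UBP10 higher in the null strain than in DOT4-6Myc on 6 of 6 arrays, so all arrays were turned. After that turn UBP10 lay at -5.11 to -4.48 in the 3 null sets. If the labels' own order held, every sign below would be exchanged. The dye component, the mean of both orientations as deposited, was alike in all 4 strains (r of 0.823 to 0.906 across genes between strains). It stays the same if strain names are exchanged within 1 strain, and UBP10 checks the direction in the null strain only. The turn of the other strains thus assumes that their labels follow the same order. Among arrays of one dye orientation the lowest correlation between 2 strains was -0.23, between the null and untagged DOT4. For dot4-1 and the null strain the correlations were 0.71 to 0.90 with the strain in Cy5 and 0.56 to 0.83 in Cy3. Such arrays share a dye effect and DOT4-6Myc, so these values alone do not settle the turn.

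Tests were made with limma on the set means of all 6195 genes, two-sided, with Benjamini-Hochberg adjustment over all genes of a comparison and a threshold of 0.05 on the adjusted p. Nothing in the labels says that sets are separate cultures, and the spread between sets behind each p-value may be technical. All 4 strains share DOT4-6Myc as their second strain, so their ratios are not independent of each other.

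All 10 genes fell in dot4-1, 9 of 10 fell in the null strain, none passed the threshold in dot4-5, and in untagged DOT4 5 rose and 1 fell. The median log2 ratio of the 10 genes was -0.96 in dot4-1, -0.67 in the null strain, 0.04 in dot4-5 and 0.24 in untagged DOT4, against medians of -0.006, -0.01, -0.003 and -0.005 over all tested genes. Calls were common in these strains, and the counts have to be read against that. Of all tested genes, 37.5% were lower and 35.9% higher in dot4-1, 32.7% lower and 30.7% higher in the null strain, 0.113% lower and 0.920% higher in dot4-5, and 14.6% lower and 11.2% higher in untagged DOT4. By the size of the ratio, 8 of the 10 genes had at most 138 of 6195 genes below them in dot4-1, and the exceptions were GDB1 with 631 and TPS3 with 719. With every array scaled to a common spread, the 10 calls in dot4-1 and the 9 in the null strain were kept. The median of the 10 genes was then -0.58 in dot4-1 and -0.47 in the null strain. That scaling divides each array by its median absolute deviation, 0.0993 to 0.122 in dot4-5 and 0.301 to 0.415 in dot4-1. It therefore enlarges values in dot4-5 and shrinks those in dot4-1. Scaled values, here and below, are not log2 ratios to DOT4-6Myc and do not compare in size with them.

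**Figure D1:**
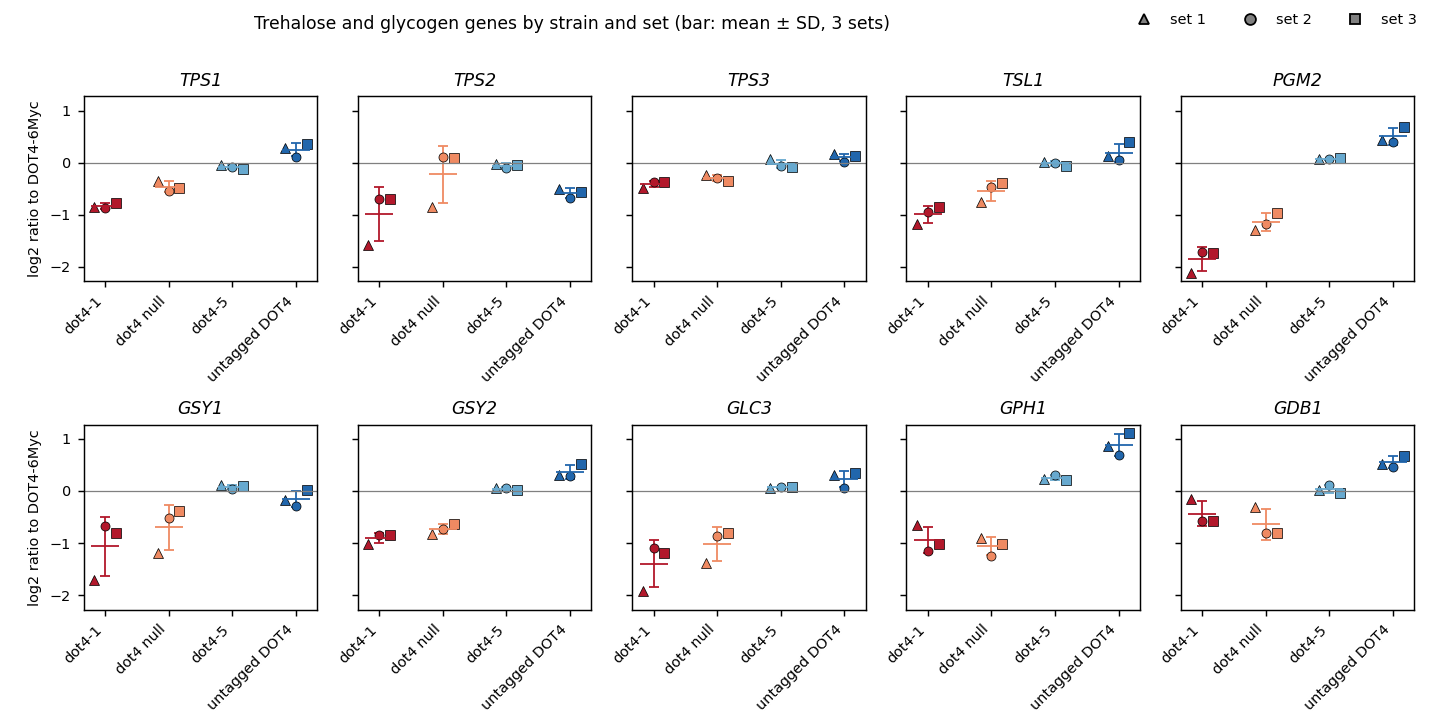
Log2 ratio to DOT4-6Myc (vertical axis) of each of the 10 genes in dot4-1, dot4 null, dot4-5 and untagged DOT4, with 1 symbol for each set and a bar for the mean and SD of 3 sets. Every dot4-1 set lies below 0 for every gene, the dot4-5 sets stay close to 0, and GPH1 reaches 1.11 in untagged DOT4.

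PGM2, which encodes the major phosphoglucomutase and stands at the entry to both pathways, had the lowest mean ratio of the 10 genes in dot4-1 and in the null strain. Its log2 ratios in sets 1, 2 and 3 were -2.12, -1.71 and -1.74 in dot4-1, -1.29, -1.18 and -0.96 in the null strain, 0.06, 0.06 and 0.08 in dot4-5, and 0.44, 0.39 and 0.69 in untagged DOT4. The 4 strains did not overlap in any set, in the order dot4-1, null, dot4-5 and untagged DOT4 from low to high. PGM2 was 3.62-fold lower in dot4-1 (log2 ratio -1.86 ± 0.23, SD, n = 3 sets, adjusted p = 5.75e-09) and 2.21-fold lower in the null strain (-1.14 ± 0.17, adjusted p = 2.8e-07). It was 1.42-fold higher in untagged DOT4 (0.51 ± 0.16, adjusted p = 0.000833). Only 8 of 6195 genes had a lower ratio in dot4-1. Its isoform PGM1 moved less, with -0.51, -0.32 and -0.34 in dot4-1 (adjusted p = 4.56e-06) and -0.18, -0.17 and -0.22 in the null strain (adjusted p = 0.0018), and it had -0.07 ± 0.043 in untagged DOT4 without passing the test (adjusted p = 0.241).

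In the trehalose branch, TPS1 encodes the synthase that joins UDP-glucose and glucose 6-phosphate to trehalose 6-phosphate. Its log2 ratios were -0.85, -0.87 and -0.77 in dot4-1, -0.35, -0.54 and -0.49 in the null strain, -0.05, -0.08 and -0.12 in dot4-5, and 0.28, 0.11 and 0.36 in untagged DOT4. The strains again kept apart in every set and in the same order as for PGM2. TPS1 was 1.78-fold lower in dot4-1 (-0.83 ± 0.054, adjusted p = 4.64e-08) and 1.37-fold lower in the null strain (-0.46 ± 0.10, adjusted p = 6.35e-06). It was 1.19-fold higher in untagged DOT4 (0.25 ± 0.12, adjusted p = 0.00292). The size depended on the dye orientation: with the strain in Cy3 only the ratio in the null strain was -0.29, and with the strain in Cy5 only the ratio in untagged DOT4 was 0.13.

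TSL1 and TPS3 encode the 2 large regulatory subunits of the complex. TSL1 had -1.18, -0.95 and -0.86 in dot4-1, -0.76, -0.46 and -0.40 in the null strain, 0.02, 0.00 and -0.07 in dot4-5, and 0.12, 0.05 and 0.39 in untagged DOT4. TPS3 had -0.48, -0.37 and -0.38 in dot4-1, -0.24, -0.29 and -0.36 in the null strain, 0.06, -0.06 and -0.08 in dot4-5, and 0.16, 0.02 and 0.12 in untagged DOT4. Both genes fell in dot4-1 and in the null strain, and TPS3 covered the smallest range of the 10 genes, 0.51 between its lowest and highest strain mean, against 1.18 for TSL1. TSL1 was 1.99-fold lower in dot4-1 (adjusted p = 4.06e-07) and 1.45-fold lower in the null strain (adjusted p = 8.23e-05). TPS3 was 1.33-fold lower in dot4-1 (adjusted p = 2.94e-06) and 1.23-fold lower in the null strain (adjusted p = 5.3e-05). In untagged DOT4 neither passed, with TSL1 at 0.19 ± 0.18 (adjusted p = 0.0993) and TPS3 at 0.10 ± 0.07 (adjusted p = 0.0949).

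TPS2, the phosphatase that releases trehalose from trehalose 6-phosphate, stood apart from its partners. Its log2 ratios were -1.58, -0.69 and -0.69 in dot4-1, -0.86, 0.10 and 0.08 in the null strain, -0.02, -0.10 and -0.05 in dot4-5, and -0.50, -0.68 and -0.57 in untagged DOT4. Set 1 was the low set in both dot4-1 and the null strain, the null strain had values on both sides of 0, and untagged DOT4 was below 0 in every set, where all of the 10 but TPS2 and GSY1 were above 0 in each set. TPS2 was 1.98-fold lower in dot4-1 (-0.99 ± 0.51, adjusted p = 0.000338) and lower in untagged DOT4 (-0.58 ± 0.094, adjusted p = 0.0317). The call in untagged DOT4 ended when any 1 of the untagged sets was left out (-0.63, -0.53 and -0.59 without sets 1, 2 and 3, adjusted p = 0.0891, 0.145 and 0.11). With all untagged sets kept and set 1 of dot4-1 and of the null strain left out, TPS2 was at -0.58 there (adjusted p = 8.99e-07). That fit was chosen after the data were seen, and a gene's spread is estimated over all 4 strains together. In the null strain TPS2 did not pass (-0.23 ± 0.55, adjusted p = 0.291), and without set 1 of that strain its ratio was 0.09 (adjusted p = 0.621). In the annotation its neighbours are SNF11, a chromatin remodelling subunit, and PPH3, a protein phosphatase, and both rose in dot4-1 (0.22 and 0.47, adjusted p = 0.0016 and 2.27e-07) and in the null strain (0.26 and 0.45, adjusted p = 0.00073 and 5.22e-07). Of all tested genes, 35.9% were higher in dot4-1 and 30.7% in the null strain. Neighbours of other genes of the 10 went both ways in dot4-1. The largest changes were in YPK2 beside PGM2 at -0.92, DPM1 beside GDB1 at -0.71 and TIF11 beside TPS3 at 0.59. Others stayed near 0, such as PTC4 beside TPS1 at -0.01 and ATG13 beside GDB1 at -0.02.

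Both glycogen synthases fell in dot4-1 and in the null strain, and their sets behaved differently. GSY2, the main isoform, had -1.02, -0.85 and -0.84 in dot4-1, -0.83, -0.73 and -0.64 in the null strain, 0.06, 0.06 and 0.02 in dot4-5, and 0.30, 0.28 and 0.52 in untagged DOT4. GSY1 had -1.71, -0.68 and -0.80 in dot4-1, -1.20, -0.52 and -0.38 in the null strain, 0.11, 0.04 and 0.10 in dot4-5, and -0.17, -0.29 and 0.01 in untagged DOT4. GSY2 varied little between sets, while set 1 of GSY1 lay far below the other sets of dot4-1 and of the null strain. GSY2 was 1.87-fold lower in dot4-1 (adjusted p = 4.19e-08) and 1.66-fold lower in the null strain (adjusted p = 2.85e-07), and it was 1.29-fold higher in untagged DOT4 (adjusted p = 0.000407). GSY1 was 2.09-fold lower in dot4-1 (adjusted p = 0.000143) and 1.62-fold lower in the null strain (-0.70, adjusted p = 0.00382), where its ratio was -0.45 without set 1 (adjusted p = 0.0413). In untagged DOT4 it had -0.15 ± 0.15 and did not pass (adjusted p = 0.603).

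GLC3, which adds the branches of glycogen, had the second lowest mean of the 10 genes in dot4-1. Its log2 ratios were -1.92, -1.09 and -1.19 in dot4-1, -1.39, -0.87 and -0.80 in the null strain, 0.06, 0.08 and 0.07 in dot4-5, and 0.30, 0.06 and 0.35 in untagged DOT4. Set 1 was again the lowest in dot4-1 and in the null strain, and no set of these strains overlapped with dot4-5 or untagged DOT4. GLC3 was 2.64-fold lower in dot4-1 (-1.40 ± 0.45, adjusted p = 2.3e-06) and 2.03-fold lower in the null strain (-1.02 ± 0.32, adjusted p = 4.41e-05). In untagged DOT4 it had 0.24 ± 0.15 (adjusted p = 0.244).

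The 2 genes of glycogen breakdown changed in the same direction as the genes of its synthesis. GPH1, which cuts glucose 1-phosphate from the chain ends, had -0.66, -1.16 and -1.01 in dot4-1, -0.91, -1.24 and -1.02 in the null strain, 0.23, 0.31 and 0.22 in dot4-5, and 0.86, 0.69 and 1.11 in untagged DOT4. GDB1, which removes the branch stubs, had -0.16, -0.58 and -0.57 in dot4-1, -0.31, -0.81 and -0.81 in the null strain, 0.02, 0.12 and -0.03 in dot4-5, and 0.52, 0.46 and 0.68 in untagged DOT4. For both genes dot4-1 and the null strain overlapped, set 1 was their highest set, and the untagged strain was above dot4-5 in every set. GPH1 was 1.92-fold lower in dot4-1 (adjusted p = 2.31e-06) and 2.08-fold lower in the null strain (adjusted p = 1.41e-06). GDB1 was 1.35-fold lower in dot4-1 (adjusted p = 0.00155) and 1.56-fold lower in the null strain (adjusted p = 0.000121). In untagged DOT4, GPH1 was 1.85-fold higher (0.89 ± 0.21, adjusted p = 4.83e-05), with only 3 of 6195 genes above it, and GDB1 was 1.47-fold higher (0.55 ± 0.11, adjusted p = 0.00171).

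**Figure D2:**
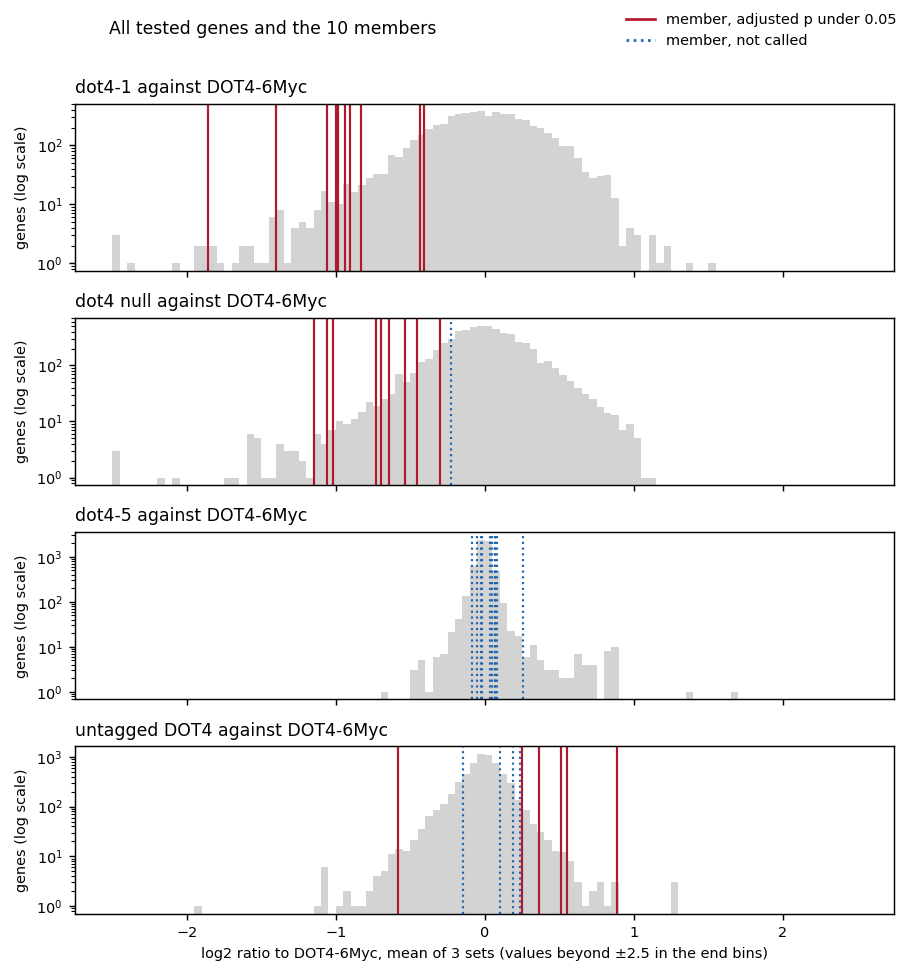
Number of tested genes (vertical log axis) by mean log2 ratio to DOT4-6Myc over 3 sets (horizontal axis, bins in grey) in each of 4 strains, with the 10 genes as vertical lines, solid red where the adjusted p is under 0.05 and dotted blue otherwise. The lines lie in the lower tail for dot4-1, with PGM2 at -1.86, and in the upper tail for most genes in untagged DOT4, with GPH1 at 0.89 and TPS2 at -0.58 on the other side.

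The strain dot4-5 showed no call among the 10 genes. Their mean log2 ratios ran from -0.08 for TPS1 to 0.25 for GPH1. The 95% intervals were narrow for TPS1 (-0.19 to 0.02), TPS3 (-0.12 to 0.06) and GSY2 (-0.07 to 0.16) and wider for TPS2 (-0.45 to 0.34) and GSY1 (-0.30 to 0.46), since the fit uses 1 estimate of a gene's spread over all 4 strains. GPH1 was higher in 3 of 3 sets, with an SD of 0.048 and an unadjusted p of 0.0181, but it did not pass after adjustment over all genes (adjusted p = 0.693). It passed in a fit of dot4-5 alone (adjusted p = 0.00225). With arrays scaled to a common spread it also passed (scaled value 0.50, adjusted p = 0.00197). That scaling enlarges all values of dot4-5, so 0.50 does not show a larger change. All 10 genes were lower in dot4-1 than in dot4-5 when the difference itself was tested, from -0.38 for TPS3 (adjusted p = 0.00018) to -1.93 for PGM2 (adjusted p = 3.27e-07), with a median difference of -0.97. With arrays scaled to a common spread, TPS2 missed the threshold there (-0.50, adjusted p = 0.0597). In that comparison 31.4% of all tested genes were lower and 29.6% higher in dot4-1.

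Set against each other through DOT4-6Myc, dot4-1 and the null strain differed in 3 genes, PGM2, TSL1 and TPS1, all lower in dot4-1. In dot4-1, PGM2 was 1.64-fold lower than in the null strain (-0.71, 95% interval -0.96 to -0.46, adjusted p = 0.00301), TSL1 was 1.37-fold lower (-0.46, -0.70 to -0.22, adjusted p = 0.0242) and TPS1 was 1.29-fold lower (-0.37, -0.52 to -0.22, adjusted p = 0.00633). These 3 of 10 genes compare with 4.99% of all tested genes that were lower and 4.83% that were higher in dot4-1. The other 7 did not pass, with TPS2 at -0.76 (-1.31 to -0.21, adjusted p = 0.0739), GLC3 at -0.38 (-0.80 to 0.04), GSY1 at -0.36 (-0.90 to 0.17), GSY2 at -0.17 (-0.33 to -0.01), TPS3 at -0.11 (-0.24 to 0.02), GPH1 at 0.12 (-0.17 to 0.40) and GDB1 at 0.21 (-0.10 to 0.51). These intervals do not show that the strains were alike for those genes. The 3 calls depended on the settings: with arrays scaled to a common spread none passed (PGM2 -0.32, TSL1 -0.22 and TPS1 -0.18, adjusted p = 0.38, 0.551 and 0.385). TSL1 also missed the threshold without set 1 or 2 of dot4-1 or set 2 of the null strain (adjusted p = 0.0669, 0.0595 and 0.0789), and TPS2 passed without set 1 of the null strain (-1.08, adjusted p = 0.00844) and was at -0.46 without set 1 of dot4-1. Set 1 of the 2 strains also moved genes that did not pass: without dot4-1 set 1 and without null set 1, GSY1 was at -0.04 and -0.61, GLC3 at -0.12 and -0.56, and GDB1 at 0.07 and 0.37.

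Same-numbered sets of dot4-1 and the null strain deviated together from their strain means (r of 0.67, 0.51 and 0.32 over 6176 genes for sets 1, 2 and 3). Unlike numbers did so too, with 0.45 for dot4-1 set 2 and null set 3, and 0.32 for dot4-1 set 3 and null set 2. The values thus set apart set 1 and do not pair sets 2 and 3 by number. The set number was also used as a replicate block in a fit of these 2 strains, chosen after the data were seen. With that block 7 of 10 genes passed, 6 lower and 1 higher in dot4-1, where 7.81% of all tested genes were lower and 6.17% higher. The same 2 strains fitted without the block gave 1 call, PGM2. TPS2 was the clearest addition, since its difference was -0.71, -0.79 and -0.78 within sets 1, 2 and 3 (adjusted p = 0.000233), although each strain varied widely between sets. GLC3 had -0.54, -0.22 and -0.38 (adjusted p = 0.0139), GSY1 had -0.52, -0.15 and -0.42 (adjusted p = 0.022), and GDB1 had 0.15, 0.23 and 0.24 (adjusted p = 0.0376). GSY2, TPS3 and GPH1 did not pass (adjusted p = 0.0604, 0.227 and 0.213). With the block in the fit of all 4 strains, TPS2 passed (adjusted p = 0.0485), and GLC3, GSY1 and GDB1 did not (adjusted p = 0.14, 0.228 and 0.266).

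**Figure D3:**
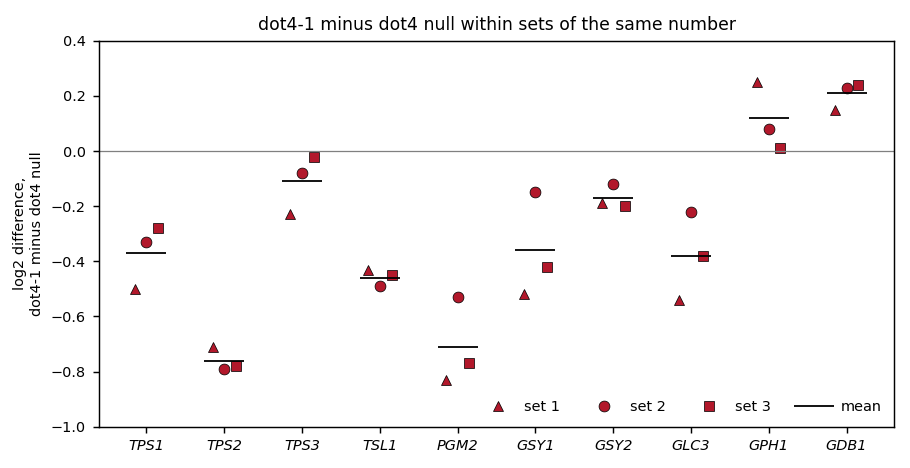
Difference in log2 ratio, dot4-1 minus dot4 null (vertical axis), of the 10 genes within each of 3 set numbers, with a bar for the mean. TPS2 keeps the same difference in all sets (-0.71 to -0.79), PGM2 ranges from -0.83 to -0.53, and GPH1 and GDB1 lie above 0.

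Against untagged DOT4, 9 of 10 genes were lower in dot4-1 and 8 of 10 in the null strain, with median differences of -1.13 and -0.91. Of all tested genes, 31.1% were lower and 31.6% higher in dot4-1 than in untagged DOT4, and 27.2% were lower and 27.7% higher in the null strain than in untagged DOT4. PGM2 was 5.16-fold lower in dot4-1 (-2.37, adjusted p = 2.6e-08) and 3.15-fold lower in the null strain (-1.65, adjusted p = 3.17e-07). GPH1 was 3.55-fold lower in dot4-1 (-1.83, adjusted p = 4.58e-07) and 3.85-fold lower in the null strain (-1.95, adjusted p = 2.68e-07). TPS2 passed in neither, with -0.40 for dot4-1 (adjusted p = 0.184) and 0.36 for the null strain (adjusted p = 0.256), and GSY1 missed the threshold in the null strain (-0.55, adjusted p = 0.0753). Without 1 set at a time, that difference of GSY1 ranged from -0.71 without null set 3 (adjusted p = 0.0459) to -0.30 without null set 1 (adjusted p = 0.271). The difference of GSY1 in dot4-1 was -0.91 (adjusted p = 0.00624), and -0.59 without dot4-1 set 1 (adjusted p = 0.0155); it missed the threshold with arrays scaled to a common spread (adjusted p = 0.0609). Without set 1 of both dot4-1 and the null strain, TPS2 was higher in the null strain than in untagged DOT4 (0.68, adjusted p = 1.27e-06).

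As a description of the set values, TPS1, TSL1, PGM2 and GSY2 kept all 4 strains apart, in the order dot4-1, null, dot4-5 and untagged DOT4 from low to high. All 3 sets of the null strain lay below all 3 of dot4-5 for 9 genes (all but TPS2), where 29.6% of 6176 genes did so. All dot4-5 sets lay below all untagged sets for TPS1, TSL1, PGM2, GSY2, GPH1 and GDB1, where 18.6% of genes did so. All dot4-1 sets lay below all null sets for TPS1, TPS3, TSL1, PGM2 and GSY2, where 15.3% of genes did so, while the remaining 5 genes overlapped between these strains. The gap was small for GSY2 (-0.84 in dot4-1 set 3, -0.83 in null set 1) and TPS3 (-0.37 in dot4-1 set 2, -0.36 in null set 3). Neither passed the limma test of that difference (adjusted p = 0.147 and 0.235).

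Set 1 differed from sets 2 and 3 in both dot4-1 and the null strain, gene by gene. In dot4-1, set 1 minus the mean of sets 2 and 3 was -0.98 for GSY1, -0.89 for TPS2, -0.78 for GLC3, -0.39 for PGM2 and -0.28 for TSL1, and 0.42 for both GPH1 and GDB1. In the null strain the same difference was -0.74 for GSY1, -0.96 for TPS2, -0.55 for GLC3, -0.22 for PGM2 and -0.33 for TSL1, 0.22 for GPH1 and 0.50 for GDB1. With GSY2 (-0.17 in dot4-1 and -0.14 in the null strain), 6 genes, PGM2 and genes of synthesis, were lower in set 1 of both strains. Both breakdown genes were higher. TPS1 (-0.03 and 0.17) and TPS3 (-0.10 and 0.08) were on either side of 0. Related enzymes of synthesis did not keep to that split. In sets 1, 2 and 3, UGP1 had -0.67, -0.92 and -0.89 in dot4-1 and -0.35, -0.75 and -0.71 in the null strain. The glycogenin gene GLG2 had -0.15, -0.31 and -0.26 in dot4-1 and -0.10, -0.42 and -0.36 in the null strain. Both were thus higher in set 1, whereas GLG1 was lower in set 1 of both strains. The median absolute shift of the 10 genes was 0.41 in dot4-1 and 0.27 in the null strain, against 0.09 and 0.15 over 6176 genes. What set 1 shares across these strains is not given in the labels, and its part in the results was not tested. Without set 1 of both strains, the count of calls stayed at 10 in dot4-1 and 9 in the null strain, TPS2 in the null strain was at 0.09 (adjusted p = 0.0728), and 5 of 10 genes were lower in dot4-1 than in the null strain, with TPS2 (-0.78, adjusted p = 3.6e-05) and GLC3 (-0.30, adjusted p = 0.0406) added. In untagged DOT4 all 10 passed in that fit, 8 higher and 2 lower, with GSY1 (-0.15, adjusted p = 0.037) joining TPS2 below 0. Of all tested genes, that fit called 38.6% lower in dot4-1, 35.9% lower in the null strain, 4.63% lower in dot4-1 than in the null strain, and 18.2% higher and 21.0% lower in untagged DOT4.

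**Figure D4:**
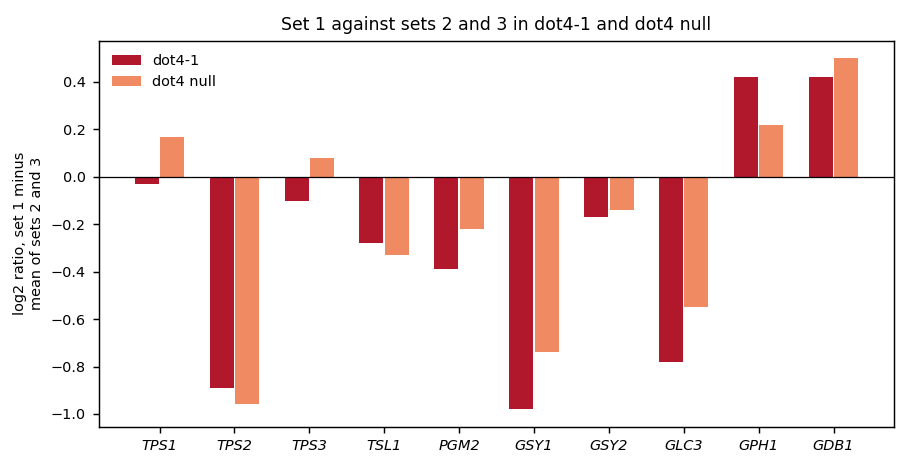
Log2 ratio of set 1 minus the mean of sets 2 and 3 (vertical axis) for the 10 genes, with bars for dot4-1 and dot4 null. The bars of both strains point the same way for 8 genes, down to -0.98 for GSY1 in dot4-1 and up to 0.50 for GDB1 in the null strain, and TPS1 and TPS3 are near 0.

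Over the 12 sets, PGM2 had the profile closest to the mean of the remaining 9 genes (Pearson r = 0.993), followed by GSY2 (0.987), TSL1 (0.981), GLC3 (0.98), TPS3 (0.957) and TPS1 (0.947). GPH1 (0.88), GSY1 (0.841) and GDB1 (0.751) were less alike, and TPS2 was least (0.378). The points share DOT4-6Myc and fall into 4 strains, so these values only describe likeness. By the same measure, the 5 genes outside the list with profiles most like its mean were HXT4, a glucose transporter (r = 0.992), DCS2, a relative of the decapping enzyme Dcs1 (0.988), YOR289W (0.988), MSC1 (0.986) and NDI1, the internal NADH dehydrogenase of mitochondria (0.986). HXT4 had mean log2 ratios of -1.06 in dot4-1, -0.57 in the null strain, 0.14 in dot4-5 and 0.36 in untagged DOT4.

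Of 11 further enzymes around the pathways, 9 fell and none rose in dot4-1, all 11 fell in the null strain, none passed in dot4-5, and 8 rose and none fell in untagged DOT4. Of all tested genes, 37.5% fell in dot4-1, 32.7% fell in the null strain and 11.2% rose in untagged DOT4. Their median log2 ratios were -0.39, -0.36, 0.00 and 0.27 in these strains. The largest changes were in GLK1 and HXK1, which phosphorylate glucose, while HXK2, the main hexokinase on glucose, had -0.45 ± 0.10 in dot4-1 (adjusted p = 5.18e-06), -0.36 ± 0.057 in the null strain (adjusted p = 4.95e-05) and -0.09 ± 0.089 in untagged DOT4 (adjusted p = 0.227). GLK1, glucokinase, had -1.30, -1.38 and -1.33 in dot4-1 (adjusted p = 1.03e-08), -0.80, -1.15 and -1.06 in the null strain (adjusted p = 1.01e-07), and 0.77, 0.54 and 0.77 in untagged DOT4 (adjusted p = 1.7e-05). HXK1, a hexokinase, had -0.99, -1.05 and -0.99 in dot4-1 (adjusted p = 1.2e-06), -0.63, -1.29 and -1.07 in the null strain (adjusted p = 2.04e-06), and 1.23, 1.17 and 1.44 in untagged DOT4 (adjusted p = 3.11e-06). All untagged sets were above all sets of dot4-1 and the null strain for both genes, and GLK1 was lower in all dot4-1 sets than in any null set.

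UGP1, which makes UDP-glucose, fell in dot4-1 (-0.83 ± 0.14, adjusted p = 8.76e-07) and in the null strain (-0.60 ± 0.22, adjusted p = 1.56e-05) and rose in untagged DOT4 (0.43 ± 0.097, adjusted p = 0.00107). GLG1, a glycogenin that primes glycogen synthesis, had -1.56, -0.41 and -0.59 in dot4-1 (adjusted p = 0.000748) and -0.87, -0.23 and -0.19 in the null strain (adjusted p = 0.0455), with set 1 low in both as for GSY1. Of the trehalase genes, NTH1 (-0.09 ± 0.085) and NTH2 (0.11 ± 0.15) did not pass in dot4-1 (adjusted p = 0.0888 and 0.0563), and ATH1, the acid trehalase, was 1.09-fold lower there (-0.13 ± 0.043, adjusted p = 0.00511). All 3 fell in the null strain, with NTH1 at -0.13, NTH2 at -0.13 and ATH1 at -0.26 (adjusted p = 0.0225, 0.0363 and 3.5e-05). All 3 rose in untagged DOT4, with NTH1 at 0.27, NTH2 at 0.29 and ATH1 at 0.47 (adjusted p = 0.00132, 0.00107 and 3.31e-06).

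**Figure D5:**
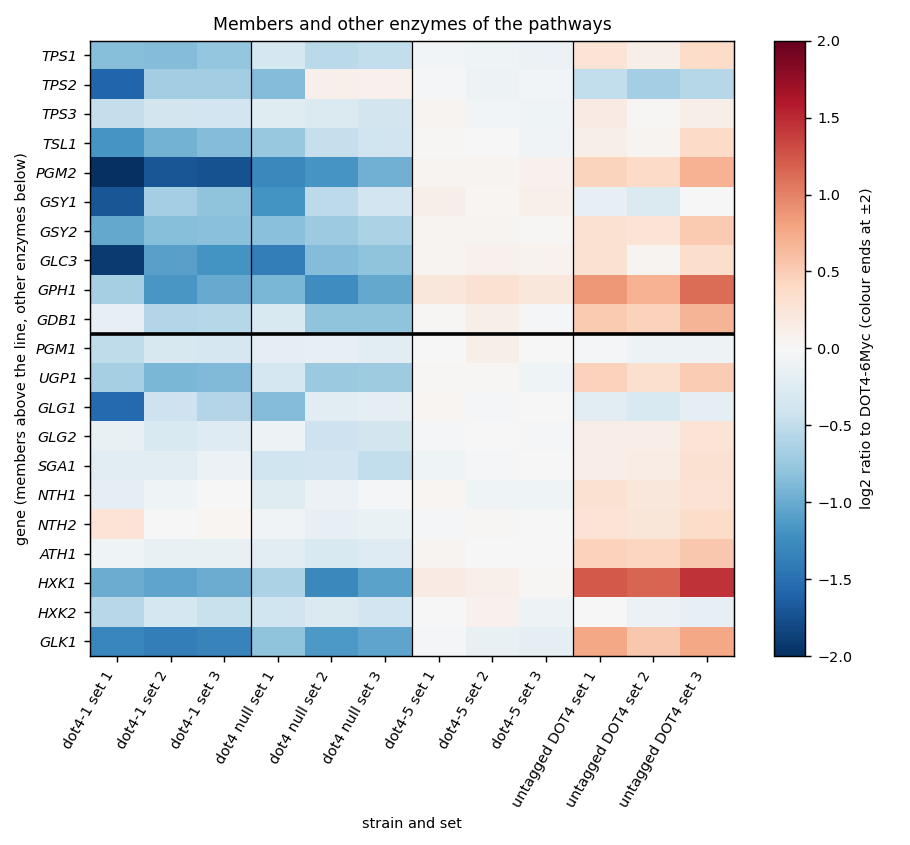
Log2 ratio to DOT4-6Myc (colour, ending at -2 and 2) of the 10 genes above the line and 11 further enzymes of the pathways below it (vertical axis), in each set of 4 strains (horizontal axis). Blue fills dot4-1 and dot4 null for most genes, dot4-5 is near 0, and untagged DOT4 is red for most genes, HXK1 most of all at 1.17 to 1.44, while TPS2 is blue.

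Among 14 genes for regulators of these enzymes, 6 fell and 2 rose in dot4-1, 6 fell and none rose in the null strain, none passed in dot4-5, and 2 rose and 2 fell in untagged DOT4. Of all tested genes 37.5% fell and 35.9% rose in dot4-1, 32.7% fell and 30.7% rose in the null strain, and 11.2% rose and 14.6% fell in untagged DOT4, so that the counts that fell are near the background. Their medians stayed near 0, at -0.06, -0.08, -0.01 and -0.01. IGD1, an inhibitor of the debranching enzyme, had -1.38, -1.05 and -1.06 in dot4-1 (adjusted p = 6.14e-08), -0.68, -0.50 and -0.39 in the null strain (adjusted p = 4.59e-05), and -0.38, -0.52 and -0.24 in untagged DOT4 (adjusted p = 0.00235). It was below DOT4-6Myc in every set of those 3 strains. GAC1, which directs protein phosphatase 1 to glycogen synthase, had -1.68, -0.67 and -0.77 in dot4-1 (adjusted p = 0.000217) and -1.11, -0.27 and -0.32 in the null strain (adjusted p = 0.015), again with set 1 lowest in both. DCS1 fell in dot4-1 (-0.44, adjusted p = 1.19e-05) and in the null strain (-0.33, adjusted p = 0.000153) and rose in untagged DOT4 (0.37, adjusted p = 0.000374).

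Among 11 genes for stress transcription factors and their kinases, 6 fell and 2 rose in dot4-1, 6 fell and 2 rose in the null strain, none passed in dot4-5, and 3 rose and 1 fell in untagged DOT4. Of all tested genes 37.5% fell and 35.9% rose in dot4-1, 32.7% fell and 30.7% rose in the null strain, and 11.2% rose and 14.6% fell in untagged DOT4, and the number of calls says nothing particular of these genes. TPK2 and TPK3, which encode catalytic subunits of protein kinase A, went different ways. TPK2 fell in dot4-1 (-0.67 ± 0.043, adjusted p = 3.57e-08) and in the null strain (-0.42 ± 0.067, adjusted p = 1.41e-06), whereas TPK3 rose in dot4-1 (0.51 ± 0.057, adjusted p = 2.17e-05) and in the null strain (0.41 ± 0.22, adjusted p = 0.000191). MSN2 transcripts changed little, with 0.10 in dot4-1 (adjusted p = 0.0453) and 0.14 in the null strain (adjusted p = 0.00792). YAK1, a kinase that acts against protein kinase A in growth control, had -0.93, -0.44 and -0.51 in dot4-1 (adjusted p = 9.91e-05), -0.50, 0.03 and -0.02 in the null strain (adjusted p = 0.162) and -0.58, -0.67 and -0.55 in untagged DOT4 (adjusted p = 0.000988). Like TPS2, it was low in set 1 of dot4-1 and of the null strain and below 0 in all untagged sets.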

How the data were processed

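The series compared total RNA of 2 yeast strains on each of 24 two-dye arrays. The deposited values are log2 ratios per open reading frame. The labels name no scale, and the base was read from the values, which pile up at log2 of 3 (19 cells, against a mean of 0.3 at adjacent values). The sources used here do not give the array type, probes, scanner, background correction or normalization, so signal shared between related genes such as GSY1 and GSY2 could not be assessed. The deposited arrays had medians of -0.092 to 0.276 and median absolute deviations of 0.0993 to 0.415; 83 of 148920 cells were empty.

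Arrays were centred on their medians and turned to strain over DOT4-6Myc. The mean of both arrays of a set was used, in which a dye effect cancels. The direction rule turned all arrays if UBP10 was higher in the null strain in the order of the labels and the dye component correlated above 0.3 between all strains. The 12 set means were fitted in R 4.3.3 with limma 3.58.1 (lmFit, eBayes; a mean for each strain, 8 residual degrees of freedom) after a filter for at least 2 sets with both arrays in every strain. Of 6205 genes 10 were removed. There were 8 comparisons. The fit was tested on simulated data. Set numbers did not pair all strains, with correlations of deviations of -0.30 to 0.67 in 18 same-numbered pairs, 7 of them over 0.1. Same-numbered sets of dot4-1 and the null strain had 0.32 to 0.67. Sets 2 and 3 of these strains also correlated across numbers (0.45 and 0.32), so only set 1 was told apart. The number of arrays limits the precision.

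The 10 genes, the 3 lists of related genes and the alternatives were chosen with earlier results of these data known. Named genes were the 10, UBP10, the largest changes past the threshold in a list and the 5 with the most similar profiles. NTH1, NTH2, HXK2, GLG2 and MSN2 were added for their role after their values were seen, and PGM1 as the isoform of PGM2. Neighbours of TPS1, TPS2, PGM2, GDB1 and TPS3 were also named with their values seen. Symbols and neighbours came from RefSeq's R64 annotation, which held 5705 of the 6205 systematic names. Alternatives were no centring, a common spread, each dye orientation, separate arrays with the set as a random block (consensus correlation 0.384), strains fitted alone, a replicate block, complete genes only and leaving out sets. Python 3.11.15 with matplotlib 3.10.9 drew the figures. Promoter and protein sequences were not used here.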

Additional observations from a re-analysis of the deposited data

Results flagged for a closer look

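Differences between strains that passed the test of the difference itself (limma, Benjamini-Hochberg over all genes) were found for each of the 10 genes. Between dot4-1 and dot4-5 the log2 differences were -0.75 for TPS1, -0.93 for TPS2, -0.38 for TPS3, -0.98 for TSL1, -1.93 for PGM2, -1.14 for GSY1, -0.95 for GSY2, -1.47 for GLC3, -1.20 for GPH1 and -0.47 for GDB1. Between dot4-1 and the null strain they were -0.37 for TPS1, -0.46 for TSL1 and -0.71 for PGM2. Between dot4-1 and untagged DOT4 they were -1.08 for TPS1, -0.51 for TPS3, -1.18 for TSL1, -2.37 for PGM2, -0.91 for GSY1, -1.27 for GSY2, -1.64 for GLC3, -1.83 for GPH1 and -0.99 for GDB1. Between the null strain and untagged DOT4 they were -0.71 for TPS1, -0.40 for TPS3, -0.73 for TSL1, -1.65 for PGM2, -1.10 for GSY2, -1.26 for GLC3, -1.95 for GPH1 and -1.20 for GDB1. All comparisons share DOT4-6Myc.

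For TPS3 in untagged DOT4, 1 of 6 arrays lay far from the others at -0.07. Chance sets apart about 1 in 20 such groups.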

How the results depend on the processing

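Each call was recomputed under other settings, of which the joint removal of set 1 and the block in 2 strains were chosen after seeing the data. Of 1090 alternative values of single genes, 1039 kept their direction and their side of the threshold, 13 were no longer past it, 29 newly passed and 9 changed sign; all 120 values of dot4-1 against DOT4-6Myc kept both. The cause was not tested for any change below. Scaled to a common spread, the median of the 10 genes was -0.58 in dot4-1, -0.47 in the null strain and 0.09 in dot4-5, and 1 gene passed in dot4-5 (GPH1, 0.50); between dot4-1 and the null strain 0 of 10 genes passed, against 3, and 37 of all genes, against 608, and TPS2 in dot4-1 minus untagged DOT4 changed sign (0.12). Over all genes that scaling gave 353 calls for dot4-5, against 64 (53% higher, against 89.1%), and 2246 for dot4-1 minus dot4-5, against 3779. Without centring, dot4-1 minus the null strain had 242 calls, and the share of higher calls was 12.5% for untagged DOT4, against 43.3%, 66.4% for dot4-1 minus untagged DOT4, against 50.4%, and 69.6% for the null minus untagged DOT4, against 50.5%, while the 10 genes kept 5 higher and 1 lower in untagged DOT4. With the strain in Cy5 only, dot4-5 had 458 calls over all genes and 1 among the 10 genes (TPS1, -0.18), and dot4-1 minus the null strain had 339. With the strain in Cy3 only, dot4-5 had 437 calls, and TPS1 (0.01) and GDB1 (-0.07) changed sign there. Fitted alone, dot4-5 had 140 calls and 1 of the 10 genes, and dot4-1 and the null strain had 101 and 1. Leaving out 1 set at a time, all genes in dot4-1 minus the null strain gave 267 to 1132 calls (1132 without null set 3, 267 and 349 without dot4-1 sets 2 and 3, 373 without null set 2), the 10 genes 2 to 4, and untagged DOT4 913 to 1088 calls, against 1599, with 981 without set 2 and 913 without set 3. Signs changed for GPH1 in dot4-1 minus the null strain (-0.03 without dot4-1 set 1, range to 0.22), TPS2 in the null strain (0.09 without its set 1, range from -0.39), and, in dot4-5, GDB1 (-0.01 without set 2, range to 0.07), TPS3 (0.00 without set 3, range from -0.07) and TSL1 (0.01 without set 3, range from -0.04). With set 1 of both dot4-1 and the null strain left out, 10 genes passed in untagged DOT4, where the ratios were unchanged. In that fit 5 passed in dot4-1 minus the null strain, and TPS2 was at 0.09 in the null strain. The replicate block in dot4-1 and the null strain alone gave 7 calls; over all strains it added TPS2 in dot4-1 minus the null strain (adjusted p = 0.0485) and GSY1 in the null minus untagged DOT4 (adjusted p = 0.0322), and no other call of the 10 genes changed. With the arrays of the null strain alone reversed, 10 genes would be lower in dot4-1 than in the null strain. That reversal would also put UBP10 higher in the null strain than in DOT4-6Myc. The turn of the other strains is the part that UBP10 does not check. With those strains reversed and the null strain kept, each difference changes sign, and the 10 genes would be higher in dot4-1. The share of all tested genes was not computed for either case, so the count says nothing particular of these 10 genes.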
